A study of Mus musculus with 6 samples.

Results

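The circadian clock genes described here are 10 genes of the clock's transcriptional loop, taken from the count tables by their symbols among 54525 listed genes, and all 10 were found and passed the filter on low counts. Cells of C2C12, a wild-type mouse myoblast line that was cloned from a parent line, were untreated and were collected as myoblasts at D0 (day 0, 3 libraries) and as myotubes at D5 (day 5 of differentiation, 3 libraries). The myoblasts grew in medium with fetal bovine serum and differentiated in medium with less serum, from horse. The sources used here do not say whether the samples of a group came from separate thaws or passages, so p-values measure only the spread between these samples, which may be technical. The hour of collection, the time since the last change of medium and any synchronization of the cultures are not given in the sources used here, so a level and a phase of the clock cannot be told apart.

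The clock of mammalian cells is a feedback loop with a period of about a day. ARNTL (also called BMAL1) pairs with CLOCK or NPAS2 and switches on genes with an E-box, among them those for the PER and CRY proteins, which then repress their own activators. A second loop, of the REV-ERB repressors and ROR activators, sets the level of *Arntl*, and outputs such as DBP carry the rhythm to D-box genes. Skeletal muscle cells hold such a clock of their own. In a culture without a common signal the clocks of single cells drift apart, and bulk RNA averages over them. Bulk RNA also cannot tell fewer expressing cells from less RNA per cell.

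From D0 to D5, 8 of the 10 clock genes rose, 1 fell and 1 did not pass the test. All 5 repressor genes rose, by 1.27-fold (*Per1*) to 2.09-fold (*Per3*), after scaling of the libraries by TMM factors, whereas with scaling to spike-in RNA none of them passed the test and *Per1* had a negative log2 fold change. The largest rise was that of the feedback repressor *Bhlhe40*, 3.95-fold, and the only fall was that of the activator *Npas2*, to 17.2% of its D0 level. The call of both held under every scaling tried. Changes are from edgeR's quasi-likelihood test, and adjusted p-values are Benjamini-Hochberg values over 16290 tested genes, where under 0.05 counts as a call. In that test 82.9% of all genes were called, 42.2% higher and 40.8% lower at D5, so a change by itself was common. The median log2 fold change was 0.46 for the clock genes and 0.0 for all genes.

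**Figure D1:**
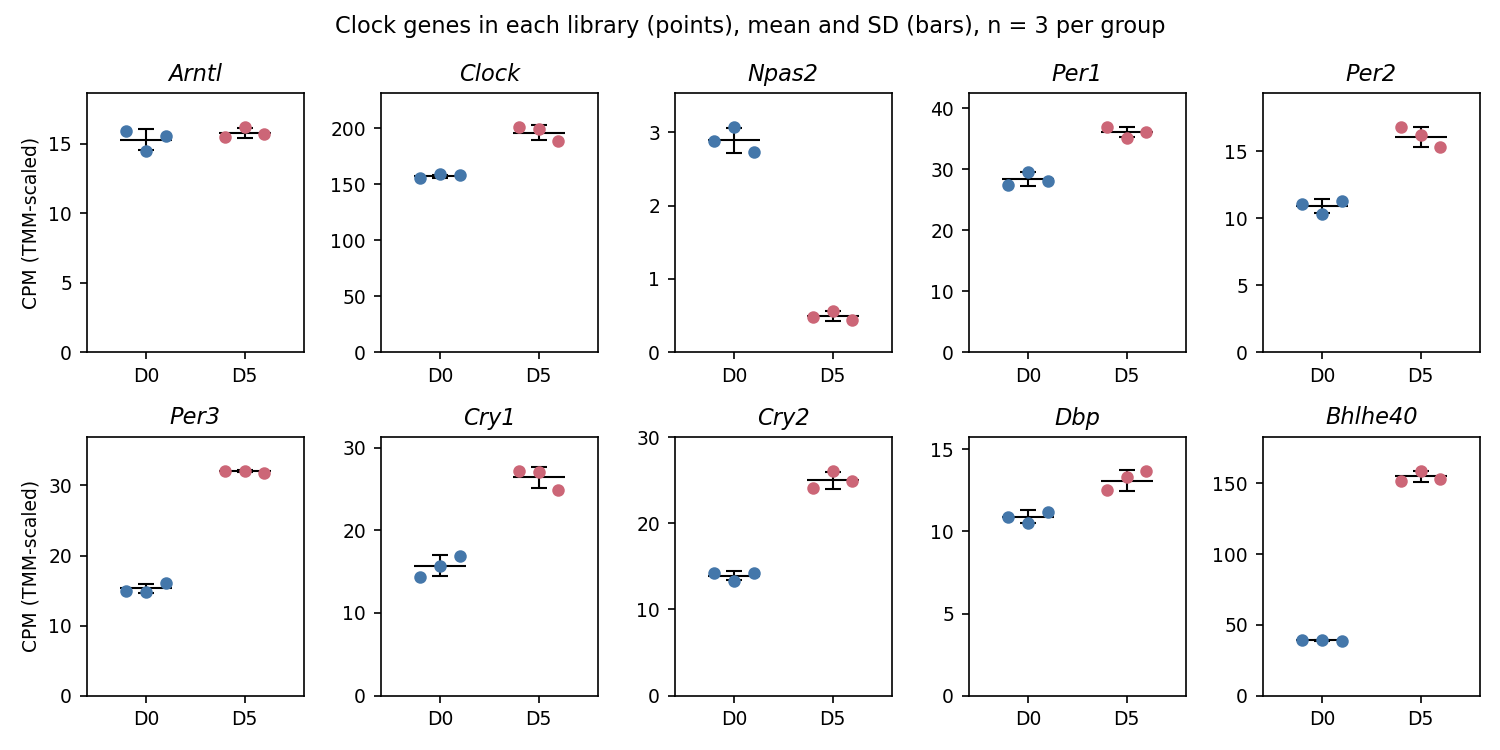
CPM (counts per 1000000, TMM-scaled) of the 10 clock genes in each library, with D0 in blue and D5 in red; black bars are the mean and SD of 3 libraries and each axis starts at 0. The D5 libraries lie above the D0 libraries in 8 panels, below them for *Npas2*, and among them for *Arntl*.

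The libraries held 36555048 to 40895840 counts on genes at D0 and 25449759 to 25811300 at D5, and ERCC spike-ins (synthetic RNAs added to each sample) took 0.726% to 0.859% of counts at D0 and 0.72% to 2.09% at D5. The proliferation markers *Mki67*, *Top2a*, *Ccnb1* and *Cdk1* all fell, from 1550 to 1560 CPM in sum at D0 to 47.4 to 55.8 CPM at D5, and the 5 myotube markers *Myog*, *Mymk*, *Myh3*, *Acta1* and *Ckm* all rose, from 26.3 to 33.5 CPM in sum to 9810 to 10500 CPM, although the cell type field of the labels reads myoblasts for D5 too. The 3 myoblast markers *Pax7*, *Myf5* and *Myod1* fell, from 339 to 356 CPM in sum to 154 to 160 CPM. Of 12 markers of endothelial, haematopoietic, adipose and neural cells, 8 had at most 3 counts in every library. *Cd68* and *Tek*, the only ones of them tested, were at 3.31 CPM or less in every library with log2 fold changes of -0.50 and -1.49, both called, and *Pecam1* and *Syt1* were at 0.166 CPM or less in every library.

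The activators did not move together. *Arntl* (ENSMUSG00000055116.8, chromosome 7 of GRCm38 from 113207465 to 113314126), the partner that the loop cannot do without, had 15.9, 14.5 and 15.6 CPM in the D0 libraries and 15.5, 16.2 and 15.7 CPM in the D5 libraries. The groups overlapped, and its log2 fold change of 0.05 ± 0.063 (SE, edgeR adjusted p = 0.483) did not pass the test under any alternative. It was -0.51 with spike-in scaling, and lay just below 0 with total counts, without a filter and without D0 replicate 2.

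*Clock* (chromosome 5 from 76209868 to 76304792), which codes for the usual partner of ARNTL, was at 156, 159 and 158 CPM at D0 and at 201, 199 and 189 CPM at D5. Every D5 library lay above every D0 library, a log2 fold change of 0.32 ± 0.033 (SE, edgeR adjusted p = 5.4e-10), which was -0.24 and not past the threshold with spike-in scaling.

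*Npas2* (ENSMUSG00000026077.15, chromosome 1 from 39193731 to 39363236) codes for a paralog of CLOCK that can stand in for it. Reads on it numbered 108, 129 and 110 at D0 and 12, 14 and 11 at D5, or 2.88, 3.07 and 2.73 CPM against 0.477, 0.568 and 0.442 CPM. The D5 values were all far below the D0 values. The log2 fold change was -2.54 ± 0.21 (SE, edgeR adjusted p = 2.8e-12), and 4.23% of all genes tested had a lower one. Within each library, the log2 ratio of *Npas2* to *Clock* counts, which no scaling can change, went from -5.76 ± 0.081 to -8.58 ± 0.15 (SD, n = 3 each). That difference of -2.82 had an exact two-sided permutation p of 0.1, the smallest that 3 libraries against 3 can give, and 0.133 when adjusted over the 4 ratios tested. Per exonic length, *Npas2* supplied 5.0% ± 0.265 of the summed TPM (transcripts per 1000000) of *Clock* and *Npas2* at D0 and 0.718% ± 0.0802 at D5 (SD, n = 3 each).

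The PER repressors bind the activators together with CRY. *Per3* (ENSMUSG00000028957.12, chromosome 4 from 151003652 to 151044665) had 15.0, 14.8 and 16.1 CPM at D0 and 32.1, 32.1 and 31.8 CPM at D5, levels that were well apart. Its log2 fold change of 1.07 ± 0.054 (SE, edgeR adjusted p = 1.3e-17) was 0.50 and not past the threshold with spike-in scaling.

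*Per2* (chromosome 1 from 91415982 to 91459324), a PER gene needed for daily rhythms of behaviour, had 11.1, 10.3 and 11.3 CPM at D0 and 16.8, 16.2 and 15.3 CPM at D5, a log2 fold change of 0.57 ± 0.068 (SE, edgeR adjusted p = 7.8e-09). *Per1* (chromosome 11 from 69095217 to 69109960), which serum and glucocorticoids also switch on, had 27.4, 29.6 and 28.1 CPM at D0 and 36.9, 35.2 and 36.2 CPM at D5, a log2 fold change of 0.35 ± 0.048 (SE, edgeR adjusted p = 1.2e-07). For both genes each D5 library was above each D0 library with TMM scaling. With spike-in scaling the log2 fold changes were 0.01 for *Per2* and -0.23 for *Per1*, neither past the threshold.

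The proportions of the 3 PER genes were compared within each library. The log2 ratio of *Per3* to *Per2* counts was 0.44, 0.52 and 0.51 at D0 and 0.93, 0.99 and 1.05 at D5, a difference of 0.50, and that of *Per1* to *Per2* went from 1.38 ± 0.12 to 1.16 ± 0.065 (SD, n = 3 each), a difference of -0.22. Neither ratio overlapped between the groups, but with 3 libraries each the test cannot pass its threshold. For each the exact two-sided permutation p was 0.1, the smallest possible, and 0.133 when adjusted over the 4 ratios. In TPM, *Per1* made up 59.3% ± 1.86 of the PER family at D0 and 51.3% ± 0.715 at D5, and *Per3* 18.8% ± 0.743 and 26.7% ± 0.471, while *Per2* stayed within its spread at 21.9% ± 1.21 and 22.0% ± 0.726 (SD, n = 3 each).

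The cryptochromes, the strongest repressors of the CLOCK and ARNTL pair, rose side by side. *Cry1* (ENSMUSG00000020038.10, chromosome 10 from 85131700 to 85185064) had 14.4, 15.7 and 16.9 CPM at D0 and 27.2, 27.0 and 24.9 CPM at D5. *Cry2* (ENSMUSG00000068742.11, chromosome 2 from 92403646 to 92434043) had 14.2, 13.3 and 14.2 CPM at D0 and 24.1, 26.1 and 24.9 CPM at D5. Both were higher in each D5 library than in any D0 library, with log2 fold changes of 0.75 ± 0.061 (SE, edgeR adjusted p = 1.7e-12) for *Cry1* and 0.85 ± 0.058 (SE, edgeR adjusted p = 2.9e-14) for *Cry2* in edgeR's test, and with spike-in scaling at 0.20 and 0.29 neither passed it. The log2 ratio of *Cry1* to *Cry2* counts was 0.17 ± 0.13 at D0 and 0.08 ± 0.088 at D5 (SD, n = 3 each), and the groups overlapped (difference -0.09, between -0.17 and -0.05 without each library in turn, exact two-sided permutation p = 0.3). Of the summed TPM of both, *Cry1* held 68.0% ± 1.95 at D0 and 66.6% ± 1.35 at D5 (SD, n = 3 each).

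*Bhlhe40* (ENSMUSG00000030103.11, chromosome 6 from 108660629 to 108666925) codes for DEC1, which competes with the activators for E-boxes. It had 39.4, 39.2 and 38.8 CPM in the D0 libraries and 152, 159 and 153 CPM in the D5 libraries. The groups were far apart and the libraries of each group close together. Its log2 fold change was 1.98 ± 0.037 (SE, edgeR adjusted p = 6.2e-29), and 10.8% of all genes tested had a higher one. With spike-in scaling the log2 fold change was 1.43 (adjusted p = 0.023, edgeR), and *Bhlhe40* was then the only clock gene still called higher.

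*Dbp* (ENSMUSG00000059824.12, chromosome 7 from 45705088 to 45710203), a direct E-box target and an activator of D-box genes, had 10.9, 10.5 and 11.2 CPM at D0 and 12.5, 13.3 and 13.7 CPM at D5. These groups did not overlap but lay near each other, with the smallest called log2 fold change of the 10 genes, 0.27 ± 0.07 (SE, edgeR adjusted p = 0.00082), which was -0.31 and not past the threshold with spike-in scaling. Of its exonic length 18.0% is shared with *Sphk2* on the opposite strand, the strand setting of the counts is not stated, and *Sphk2* itself had a log2 fold change of 0.26, so the share of its reads in the value of *Dbp* was not tested. No other clock gene shared more than 4.67% of its exonic length with a gene on the opposite strand. Of the 50-base stretches of their transcripts, 0.0638% for *Cry2* and 0.0% for each of the other 9 occurred in another gene.

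**Figure D2:**
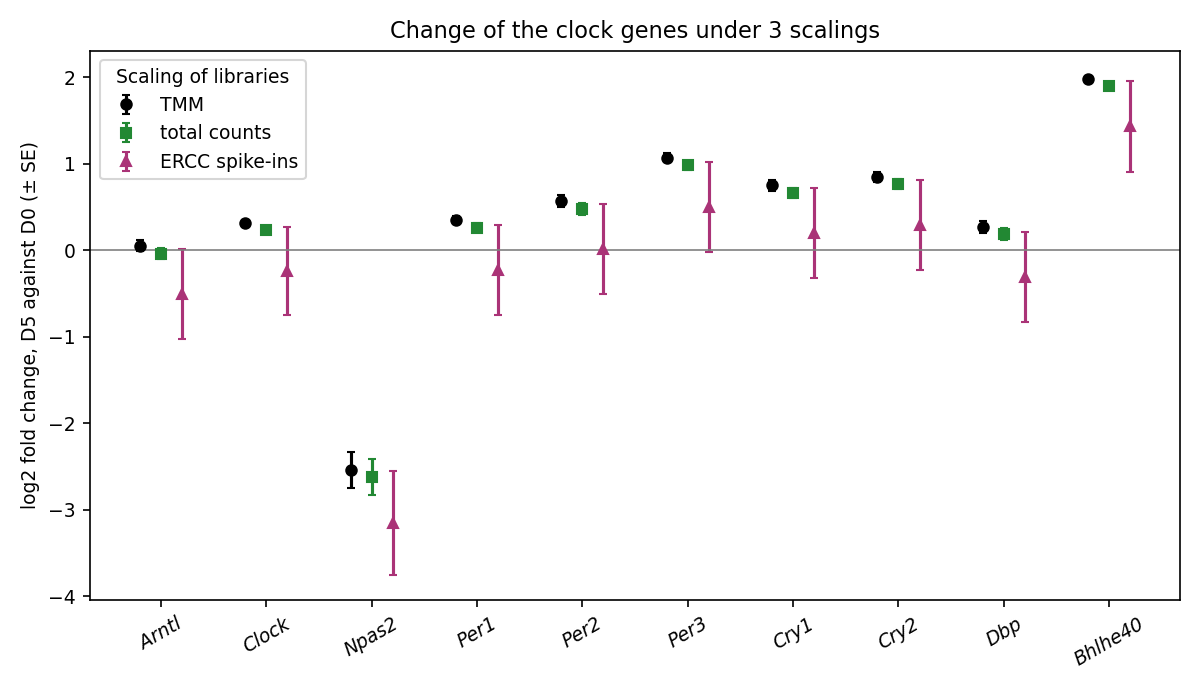
Log2 fold change of each clock gene, D5 against D0, with its standard error, from edgeR with libraries scaled by TMM, by total counts and by ERCC spike-ins. *Bhlhe40* at 1.98, 1.90 and 1.43 and *Npas2* at -2.54, -2.62 and -3.15 keep their direction and call. The spike-in value of every clock gene, these included, lies lower than its TMM value with a wider error.

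By library, 8 of the 10 genes were higher in each D5 library than in each D0 library, as were 42.2% of all genes tested, and 1 was lower throughout, as were 41.1%. Total counts in place of TMM kept all of these calls. With scaling to the spike-ins the median of all genes moved to -0.58, 67.4% of the calls over all genes were lower against 49.2% with TMM, and 1 clock gene was called higher. With TMM scaling, 9 of the 10 clock genes lay above the median of all genes, *Arntl* by only 0.05, and *Npas2* lay below it. Without D0 replicate 2 the count was 8 above and 2 below. A change of scaling moves all genes by nearly the same amount, so this count is no check on the scaling. The coefficient of variation between libraries of a group ran from 0.803% (*Clock*) to 8.12% (*Cry1*) at D0 and from 0.438% (*Per3*) to 13.1% (*Npas2*) at D5.

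Levels can be compared between genes only per length, in TPM, where the length is that of all annotated exons of a gene merged. The length of the transcripts present was not measured, so the order of genes carries an error that the SD does not show. At D0 *Clock* was the highest at 39.7 ± 0.89 TPM, followed by *Bhlhe40* at 28.8 ± 0.23, *Per1* at 17.4 ± 0.84 and *Cry1* at 16.2 ± 1.56 (SD, n = 3 each). *Per1* and *Cry1* overlapped, and so did *Arntl* at 7.04 ± 0.316 and *Per2* at 6.43 ± 0.333 TPM. *Dbp* at 12.6 and *Cry2* at 7.62 stood between those pairs, with *Per3* at 5.51 and *Npas2* at 2.09 TPM at the low end. At D5 *Bhlhe40* led with 102 ± 1.67 TPM over *Clock* with 44.4 ± 2.03, *Cry1* with 24.5 ± 1.4 and *Per1* with 19.9 ± 0.865 (SD, n = 3 each). *Dbp* at 13.6, *Cry2* at 12.3, *Per3* at 10.3, *Per2* at 8.54, *Arntl* at 6.52 and *Npas2* at 0.321 TPM followed, and no neighbours in this order overlapped. In TPM *Per3* thus passed *Per2* and *Arntl*, while *Arntl* went from the seventh place to the ninth. The place of *Per3* below *Per2* at D0 rests on the lengths used, 9608 and 5856 bases. In counts *Per3* was already above *Per2* in each D0 library. Between the groups TPM is shifted, with a median log2 ratio of -0.16 over the genes tested, so changes are given on the CPM scale.

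**Figure D3:**
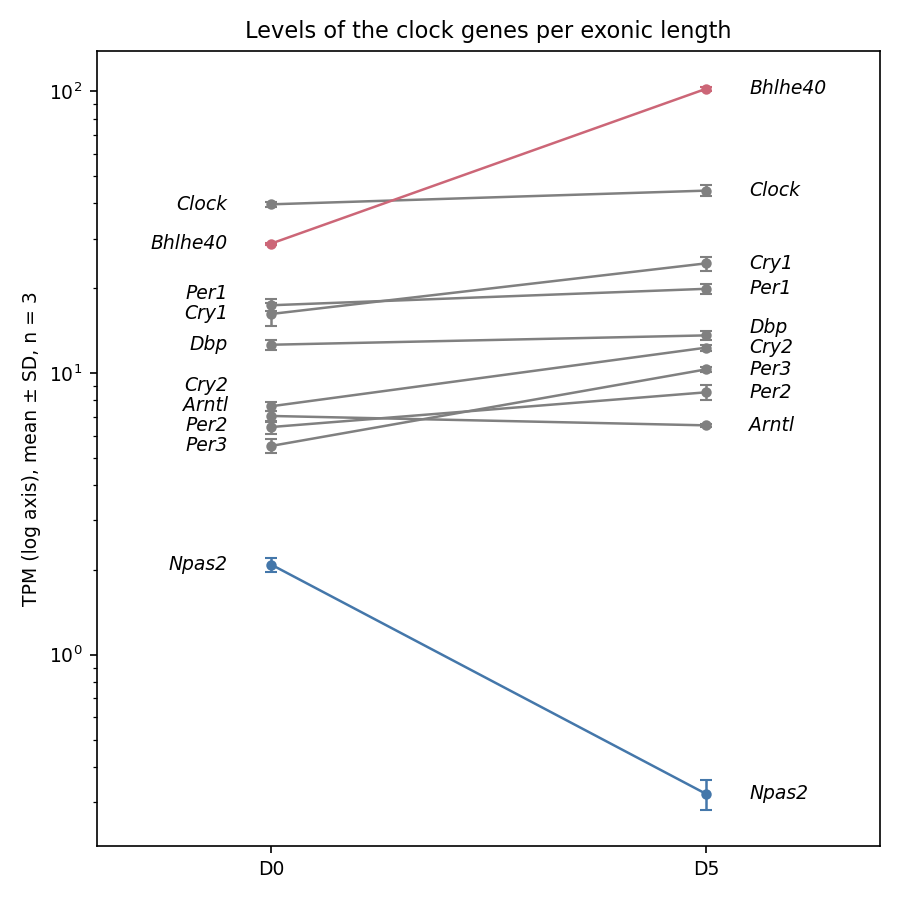
Mean TPM with SD (n = 3) of the clock genes at D0 and D5, on a log axis, with lines joining the means of a gene. *Bhlhe40* (red) goes from 28.8 to 102 TPM and passes *Clock*, and *Npas2* (blue) goes from 2.09 to 0.321 TPM.

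Promoters in the RefSeq table for GRCm38.p6, each of 250 bases before and 50 bases from a transcript start, matched 8 of the 10 genes by symbol (12 promoters), and *Per2* and *Bhlhe40* had no entry. Both strands were searched for the E-box CACGTG, its variant CACGTT, the D-box as TTATGTAA or TTACGTAA, and the element of ROR and REV-ERB (RORE) as ANTAGGTCA or ANTGGGTCA. The 4 promoters that held an E-box, a D-box or a RORE are shown 5′ to 3′, with these matches in capitals (the variant is left in lower case), because they place the binding letters of the loop's own regulators next to genes measured here.
*Per1* (first of 2 starts), chr11:69098699-69098998, plus strand: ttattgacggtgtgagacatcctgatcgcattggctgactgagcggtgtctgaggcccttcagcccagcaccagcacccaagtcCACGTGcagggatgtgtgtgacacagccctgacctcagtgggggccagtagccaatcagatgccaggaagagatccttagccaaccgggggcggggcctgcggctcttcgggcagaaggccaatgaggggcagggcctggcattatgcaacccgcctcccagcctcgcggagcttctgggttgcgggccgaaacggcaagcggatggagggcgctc
*Cry1*, chr10:85185005-85185304, minus strand: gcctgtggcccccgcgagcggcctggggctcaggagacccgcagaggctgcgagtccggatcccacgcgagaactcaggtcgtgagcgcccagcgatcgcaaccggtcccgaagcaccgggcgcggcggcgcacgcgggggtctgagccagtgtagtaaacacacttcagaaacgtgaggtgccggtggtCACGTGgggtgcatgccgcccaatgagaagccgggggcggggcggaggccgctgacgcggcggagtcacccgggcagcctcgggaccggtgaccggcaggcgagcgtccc
*Per3*, chr4:151044616-151044915, minus strand: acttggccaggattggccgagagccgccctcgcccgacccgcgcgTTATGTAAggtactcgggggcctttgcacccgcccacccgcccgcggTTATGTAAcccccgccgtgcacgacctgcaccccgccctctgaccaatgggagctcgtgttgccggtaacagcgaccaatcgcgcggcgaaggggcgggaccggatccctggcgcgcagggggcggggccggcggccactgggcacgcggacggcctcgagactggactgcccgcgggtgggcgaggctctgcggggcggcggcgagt
*Arntl* (second of 2 starts), chr7:113207261-113207560, plus strand: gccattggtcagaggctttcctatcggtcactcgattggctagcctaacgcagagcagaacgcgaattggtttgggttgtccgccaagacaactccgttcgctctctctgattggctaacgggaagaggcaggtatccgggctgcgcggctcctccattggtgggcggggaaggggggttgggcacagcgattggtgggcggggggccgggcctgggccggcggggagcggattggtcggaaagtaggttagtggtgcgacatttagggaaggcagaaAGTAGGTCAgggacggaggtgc

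The capitals mark an E-box in *Per1* and in *Cry1*, with its first base at -166 and -60 from the transcript start. An E-box is found in 7.15% of the 32851 promoters of the table. The variant, found in 4.68%, was at -79 in *Cry1* and at -166 in *Cry2*. In *Per3* the capitals mark a pair of D-boxes, at -205 and -158, a motif held by 1.06% of promoters. In *Arntl* they mark a RORE, held by 1.45%, which starts at base 29 of the transcript. The promoters of *Clock*, *Npas2* and *Dbp*, the first of *Arntl* and the second of *Per1* held none of these letters in this window, which does not bear on sites elsewhere in the genes. A link between these motifs and the changes from D0 to D5 was not tested.

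The other genes of the loop were counted from a list of 22, of which 21 were tested, with 10 higher, 10 lower and 1 without a call, and a median log2 fold change of 0.01. These shares stand beside 42.2% of all genes called higher and 40.8% lower. With spike-in scaling 3 were called higher and 3 lower, where 11.1% of all genes were called higher and 5560 of 16290 in either direction. In the second loop 5 of 10 genes rose and 4 fell. The REV-ERB repressors *Nr1d1* and *Nr1d2* had log2 fold changes of 0.76 and 0.47 and the activator *Rora* 0.64, all past the threshold with TMM scaling. The ROR gene *Rorb* and *Arntl2*, the paralog of *Arntl*, were called lower, with log2 fold changes of -0.48 and -0.49 (edgeR adjusted p = 0.00273 and 0.022). *Arntl2* missed the threshold when D0 replicate 2 was omitted (-0.33), and likewise on omission of replicate 1 (-0.42) or 3 (-0.47) of D5. These 5 genes are named for their role, with their values known. *Bhlhe41*, the paralog of *Bhlhe40* that codes for DEC2, rose by 1.04 on the log2 scale, from 67.9 ± 3.38 to 140 ± 4.39 CPM (SD, n = 3 each). Of the summed TPM of both paralogs *Bhlhe40* held 45.2% ± 1.19 at D0 and 61.2% ± 1.06 at D5 (SD, n = 3 each).

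*Timeless* and *Tipin* fell, with log2 fold changes of -3.79 and -2.01, to 7.25% and 24.8% of their D0 levels. In mammals their products form a complex that protects replication forks, and they moved beside the 4 proliferation markers, whose log2 fold changes ran from -5.11 to -4.40. The part of proliferation in their fall was not tested.

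The D-box factors moved apart. *Tef*, a paralog of *Dbp*, rose from 46.4 ± 1.02 to 219 ± 3.29 CPM (SD, n = 3 each), which is 2.24 on the log2 scale (edgeR adjusted p = 1.0e-30), and *Hlf*, the other one, had 2, 1 and 2 counts at D0 and 36, 18 and 27 at D5, a ratio of 26.0 in depth-scaled counts (95% exact counting interval 10.7 to 82.2). *Nfil3*, the repressor of D-box genes, fell from 49.7 ± 2.08 to 20.6 ± 0.552 CPM (SD, n = 3 each), with -1.27 on the log2 scale (edgeR adjusted p = 2.3e-20). *Dbp* went from 38.1% ± 1.3 to 13.5% ± 0.427 of the summed TPM of the 3 activators, and *Tef* from 61.8% ± 1.33 to 86.0% ± 0.36 (SD, n = 3 each). The sum of the activators over *Nfil3*, in TPM within each library, was 0.38, 0.377 and 0.412 at D0 and 3.18, 3.11 and 3.25 at D5.

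**Figure D4:**
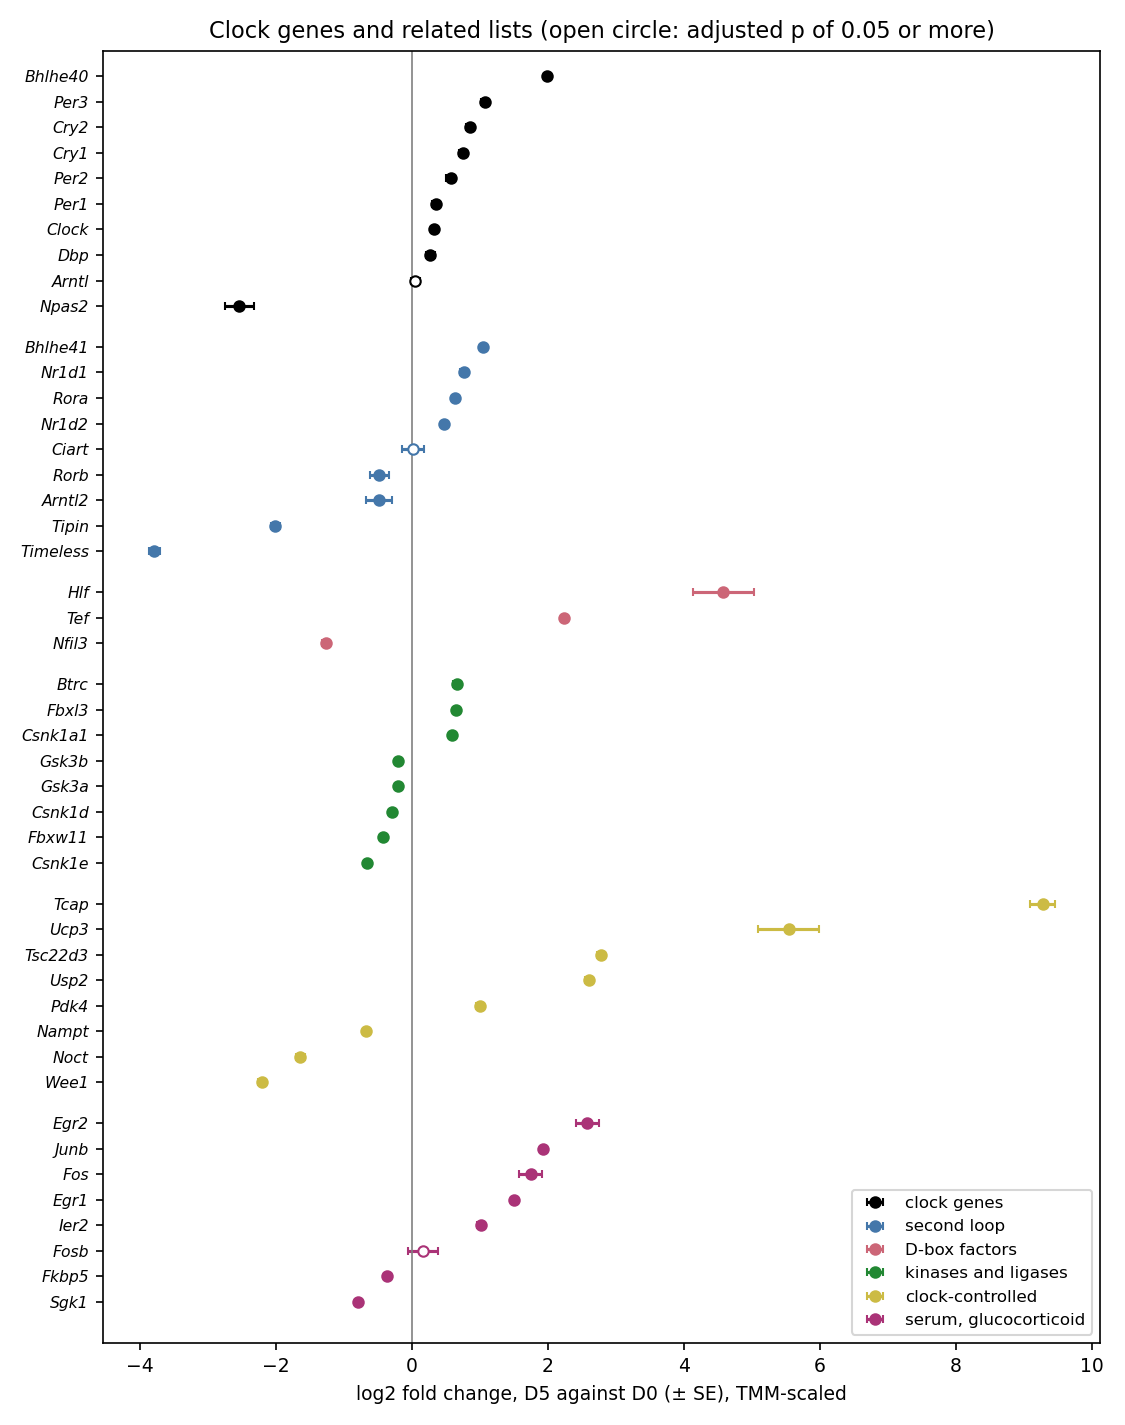
Log2 fold change, D5 against D0, with its standard error for the clock genes and genes of the related lists, from edgeR with TMM scaling; filled circles have an adjusted p under 0.05. The repressor genes sit between 0.35 and 1.07, *Tef* at 2.24 and *Nfil3* at -1.27, and the kinases and ubiquitin ligases between -0.66 and 0.66.

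Of the 9 kinases and ubiquitin ligases that act on PER and CRY proteins, 8 were tested. Of these 3 rose and 5 fell, beside 42.2% of all genes called higher and 40.8% lower. All 8 changed by less than 1 on the log2 scale, from -0.66 to 0.66. *Fbxl21* had 3 to 13 counts in each library and was not tested.

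Of 8 genes that the clock controls in muscle or other tissues, 5 rose and 3 fell with TMM scaling, at a median log2 fold change of 1.81. That test called 42.2% of all genes higher and 40.8% lower, and the median of all genes was 0.0. The deubiquitinase gene *Usp2* rose from 7.74 ± 0.121 to 47.3 ± 2.57 CPM and *Tsc22d3*, a glucocorticoid target, from 12.7 ± 0.425 to 87.5 ± 7.39 CPM (SD, n = 3 each). *Pdk4*, a kinase of pyruvate dehydrogenase, rose by 1.00 on the log2 scale. *Tcap*, which codes for a sarcomere protein, had at most 2 counts at D0 and 652 to 792 at D5, a ratio of 680 (95% exact counting interval 291 to 2100), and *Ucp3*, a mitochondrial carrier of muscle, had at most 2 and then 30 to 35, a ratio of 53.5 (17.8 to 264). *Noct*, the gene for nocturnin, fell by 1.64 on the log2 scale, and *Wee1*, a kinase that holds back mitosis, fell by 2.21. *Tcap* and *Ucp3* shared the direction of the myotube markers, with log2 fold changes of 9.28 and 5.54 against 7.32 to 11.44. *Wee1* shared the direction of the proliferation markers, at -2.21 against -5.11 to -4.40. The parts of the clock, of differentiation and of proliferation in these changes were not tested.

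Genes that answer to serum or glucocorticoids, as *Per1* and *Bhlhe40* can, also differed between the groups. Of the 8 listed, 5 rose and 2 fell with TMM scaling, beside 42.2% and 40.8% of all genes. The sum of all 8 was 217 to 218 CPM at D0 and 368 to 380 CPM at D5. The immediate early genes *Egr2*, *Junb*, *Fos*, *Egr1* and *Ier2* had log2 fold changes of 2.58, 1.93, 1.75, 1.5 and 1.01, and *Fosb* did not pass the test (adjusted p = 0.51, edgeR). The glucocorticoid targets *Fkbp5* and *Sgk1* fell by 0.36 and 0.80 on the log2 scale, whereas *Tsc22d3*, also such a target, rose by 2.78 (*Fosb*, *Fkbp5* and *Sgk1* were named with their values known). Their part in the change of the clock genes was not tested.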

How the data were processed

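RNA-seq libraries of 3 myoblast (D0) and 3 myotube (D5) cultures were grouped by their titles. The authors aligned reads to GRCm38 (HISAT2 in the paper, Tophat2 in the labels), counted them per gene with featureCounts and deposited raw counts without normalization. The annotation release, the strand setting and how multimapping reads were handled are not given in the sources used here. The 92 ERCC rows and a row without a name that equalled the column total (1 per library) entered neither library sizes nor tests.

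Counts were filtered with filterByExpr, scaled by TMM and tested with edgeR 4.0.16 in R 4.3.3 (quasi-likelihood, Benjamini-Hochberg over 16290 genes, threshold 0.05). Standard errors (SE) come from the log2 fold change and the F statistic, as the former over the root of the latter. TPM used the exonic length in GENCODE (99.9% of gene rows matched). Ratios of paralogs are log2 of counts plus 0.5, compared by exact permutation (scipy 1.17.1). Intervals cover counting error only. The RORE letters were shortened by 1 base after a first search, which found the same promoter.

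The genes and lists were chosen with earlier results of these data known. All 10 clock genes are named, as are genes of the lists past the threshold with an absolute log2 fold change of at least 1, and others where stated, except 1 gene of the second loop that is counted but not reported here. Alternatives were DESeq2 1.42.0, total counts, ERCC scaling, no filter, a minimum of 10 counts per library, omission of single libraries, and a replicate block. Simulated data served to test the scripts. Replicate pairs differed by more than sampling noise (chi-square of 2.28 to 3.71 per degree of freedom).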

Additional observations from a re-analysis of the deposited data

How the results depend on the processing

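With DESeq2, with at least 10 counts in every library and with the replicate number as a block, all 10 clock genes kept their direction and call, and the counts of called genes stayed within 1.5 times the 13510 given by edgeR with TMM. The block gave 8 clock genes higher and 1 lower, with 42.3% of all genes tested called higher and 13558 past the threshold against 13510. The correlations of deviations between libraries of the same number, 0.0329, 0.0645 and 0.0277, do not show that the numbers pair the libraries, although each library correlated best with its own number. Leaving out each library gave 8 clock genes higher and 1 lower each time. In those fits 40.4% to 41.7% of all genes tested were called higher, and 48.9% to 49.2% of the calls were lower. *Arntl*, never called, ran from -0.0017 (without D0 replicate 2) to 0.067. *Arntl* was also at -0.037 with total counts and at -0.0053 without a filter. The median of the clock genes moved from 0.46 to 0.37 with total counts and to 0.40 without a filter.

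Scaling to the ERCC spike-ins changed most. It left 5560 genes past the threshold, and 11.1% of all genes tested were called higher. Among the clock genes 1 was called higher, with a median log2 fold change of -0.11, and of the other loop genes 3 were higher and 3 lower. *Arntl* was then at -0.51, *Clock* at -0.24, *Per1* at -0.23 and *Dbp* at -0.31, none past the threshold. Standard errors of the clock genes there were 0.51 to 0.60, and the spike-in share differed between D5 libraries (0.72% to 2.09%). The cause was not tested. Depth limits *Npas2* at D5, *Hlf* and *Ucp3*, which rest on few counts.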
